A study of Mus musculus with 12 samples.

Results

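Livers of wild-type mice given N-ethyl-N-nitrosourea (ENU) were compared with livers of wild-type mice given saline, across the 11974 genes of 49584 in the deposited table that reached 1 FPKM (a level of fragments scaled for transcript length and library size) in at least 3 of the 6 libraries. The ENU group held 3 libraries from mice injected intraperitoneally with 150 µg of ENU per g of body weight. The saline group held 3 libraries from mice injected with saline. Both groups were labelled as wild type of strain C57BL/6/129/SvJ and as age-matched, with no age stated, and whole liver was collected 24 h after the injection. The labels name no engineered allele in these mice. They also do not say that each library came from an animal of its own, so the p-values below measure only the spread between libraries. The remaining 6 of the 12 libraries came from G1 Tert-/- mice, which lack the catalytic subunit of telomerase, 3 after ENU and 3 after saline; they were used to follow the same genes in a second set of mice.

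ENU transfers ethyl groups to DNA bases and to the phosphate backbone, and it is a classical point mutagen in mice. Some of these lesions are reversed directly by the alkyltransferase encoded by Mgmt, others are cut out by glycosylases or by nucleotide excision, and those left in the template are copied by translesion polymerases. Damage that stalls polymerases activates the transcription factor p53, whose protein is stabilised and which then induces genes of growth arrest, cell death, repair and its own feedback. The liver is a largely quiescent organ in which hepatocytes make most of the RNA and carry out detoxification, lipid synthesis and plasma protein secretion.

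Cdkn1a, the cyclin-dependent kinase inhibitor gene through which p53 halts the cell cycle, was the only one of 74 genes with a matched promoter and an increase of at least 1 on the log2 scale whose promoter held a pair of p53 core letters, and its promoter is shown for that reason. Promoters were taken from RefSeq (GRCm38.p6), from 250 bases before to 50 bases after each start. The motif searched was CATGNNNNNNCATG, which reads the same on both strands and was counted once at each position. The stretch shown lies at chr17:29090891-29090984 on the + strand, and the capitals mark the motif, whose first base is 48 bases before that start.
Cdkn1a: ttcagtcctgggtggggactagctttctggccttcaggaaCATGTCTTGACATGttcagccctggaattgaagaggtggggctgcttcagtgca
The motif was present in 3 of 904 promoters of the genes that rose (0.33%) and in 34 of 11138 promoters of all kept genes (0.31%), so its share among the genes that rose was close to the background. Of the 928 genes that rose, 718 were matched to a promoter by symbol. The heat shock element core GAANNTTC was in 6.08% of promoters of genes that rose against 5.83% of all kept genes, the E-box CACGTG in 9.29% against 9.96%, and the AP-1 site TGACTCA in 4.09% against 3.90%.

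Between 30053822 and 43680374 reads per wild-type library were counted in genes, and 19576 to 20310 genes had reads. The 20 most abundant genes took 17.36 to 18.91% of the reads in ENU libraries and 21.14 to 21.51% in saline libraries. The labelled tissue matched its markers: the albumin gene Alb had 28330, 35428 and 45053.8 FPKM in ENU libraries, against 37512.8, 48036.1 and 56072.5 FPKM in saline libraries. Of 19 listed T and NK cell markers only 1 was kept, with 0.802 to 1.27 FPKM in ENU libraries and 1.03 to 2.07 FPKM in saline libraries. On the first principal component, which held 50.5% of the variance, the ENU libraries lay at 11.8, 18.7 and 32.4, and the saline libraries between -22.2 and -19.3.

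After ENU, 928 genes rose and 222 fell, which was 9.6% of the genes tested (limma on log2(FPKM + 1), Benjamini-Hochberg adjusted p under 0.05; 7.75% higher and 1.85% lower). With the replicate number as a block, 720 genes passed, 500 higher and 220 lower, and 601 were among the calls without the block. The 3 ENU and 3 saline libraries did not overlap in any of the 1150 genes called. Over all kept genes, 27.4% were higher and 8.37% lower in ENU libraries with no overlap. The direction of the calls depended on the scaling. On the scale as deposited, the log2 fold changes of all kept genes had their median at 0.11, and 80.7% of the calls were higher. After median-ratio rescaling, which sets that median to -0.002, 295 genes were higher (2.46%) and 287 lower (2.4%), so 50.7% of the calls were higher; after quantile normalization the share was 52.8%. All 295 of these increases and 212 of the decreases had also passed in the deposited scaling. Among the large changes fewer calls depended on it. The filter kept 69 genes through the 3 ENU libraries alone, of which 36 rose, and 57 through the 3 saline libraries alone, of which 27 fell; such genes could differ in 1 direction only. At a log2 fold change of at least 1 there were 113 increases, of which 94 also passed after median-ratio rescaling, and at -1 or below there were 55 decreases, of which 50 did. The fold changes given below are those of the deposited scaling, in which a gene that kept pace with the median of all genes is at 0.11.

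**Figure D1:**
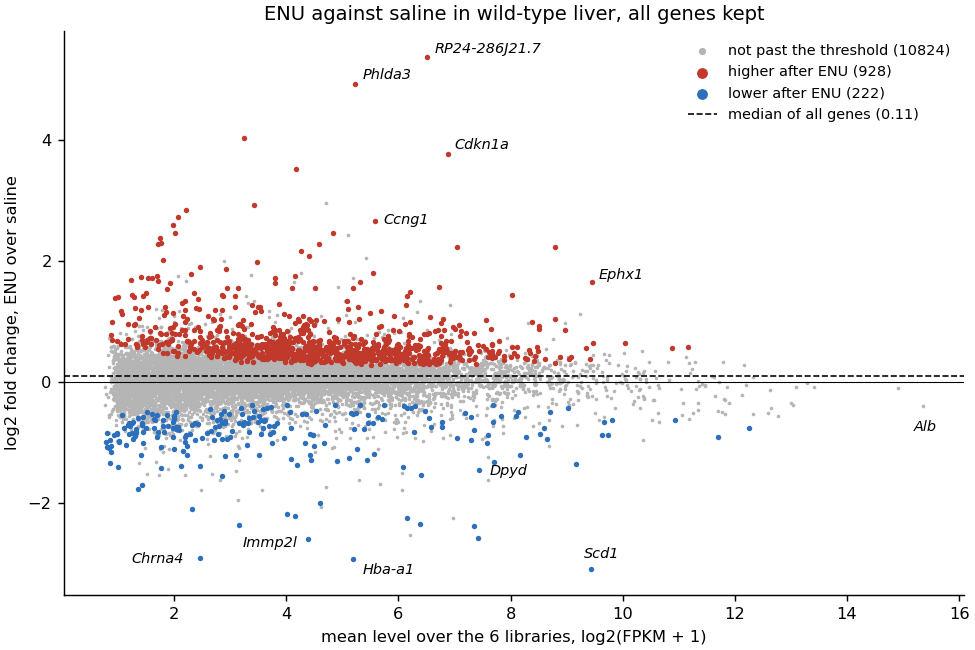
Log2 fold change (ENU over saline, y axis) of the 11974 kept genes against their mean level in the 6 wild-type libraries (x axis, log2(FPKM + 1)). Red points are the 928 genes called higher, blue points the 222 called lower, and the dashed line is the median of all genes at 0.11; increases of 2 or more on the log2 scale number 21 and decreases of that size 13.

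The clock genes stood at different phases in the libraries. The log2 ratio of Dbp to Arntl, clock genes with opposite phases, was -0.58, 4.51 and 4.70 in ENU replicates 1 to 3, against -2.73, 0.15 and -2.26 in saline replicates 1 to 3. ENU replicate 1 lay among the saline libraries and the other two ENU libraries above them. Dbp itself had 6.74, 75.6 and 55.6 FPKM in ENU libraries, against 1.45, 8.67 and 1.92 FPKM in saline libraries (log2 fold change 2.97, SE 0.89, adjusted p = 0.0764, and 0.0334 with the replicate block). The 11 genes of the Dbp phase all had estimates above 0, with a median of 1.57, and 2 rose: the output factor Tef (log2 1.57, SE 0.33, adjusted p = 0.034) and the clock repressor Ciart (log2 1.79, SE 0.42, adjusted p = 0.0421, and 0.0739 with the replicate block). Of 5 genes of the Arntl phase 1 fell, Nfil3, a repressor that opposes Dbp (log2 -1.01, SE 0.23, adjusted p = 0.0402). With the Dbp to Arntl ratio as a covariate, 20 genes passed in place of 1150, and 19 of them were among the calls made without it. All 160 called genes named by rule kept their sign with the covariate, and in 143 the log2 fold change stayed within 1.5 times of its value without it. Cdkn1a, for example, was at 5.02 with the covariate and 3.77 without it, and Immp2l at -2.64 and -2.60. The 160 were chosen because they were called, many for their size, so a kept sign was likely beforehand. The ratio was also higher in 2 of the 3 ENU libraries than in any saline library, so clock phase and ENU cannot be told apart here.

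Among 160 called genes named by rule, 13 passed in each alternative that included them. These alternatives include the clock covariate and each left-out library. The 13 were Phlda3, Ccng1, Aen, Eda2r, Bax, Dcxr, Gria3, Atp8b5, Exoc4, Acacb, the lincRNA RP24-286J21.7, 1700007K13Rik and 2410089E03Rik. All but Acacb rose. Of the 13, Eda2r, Gria3, Atp8b5 and 1700007K13Rik were kept through the ENU libraries alone, so they could be called in 1 direction only and were not in the alternative that required 1 FPKM in all 6 libraries.

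Targets of p53 led the increases. Of 18 kept genes of growth arrest and cyclins, 9 rose and 1 fell, with a median log2 fold change of 0.76, against 0.11 over all genes. Of 16 genes of cell death, 10 rose and 0 fell (median 0.68). Of 15 feedback and survival genes 5 rose and 0 fell (median 0.31), and of 22 targets in repair and metabolism 7 rose and 0 fell (median 0.15). After median-ratio rescaling the increases were 8, 6, 3 and 6 in the same order of lists. Trp53, which encodes p53, had 11.1, 10.4 and 12.6 FPKM in ENU libraries, against 10.4, 10.2 and 11.3 FPKM in saline libraries, and did not pass (log2 0.09, SE 0.10, adjusted p = 0.594).

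Among the arrest genes, Cdkn1a (mm10, chromosome 17, 29090979 to 29100722) had 285, 135 and 224 FPKM in ENU libraries, against 32.5, 4.70 and 17.0 FPKM in saline libraries. The groups did not overlap, but the saline libraries spread widely, and its standard error was large for the size of the change (log2 3.77, SE 0.60, adjusted p = 0.0179). The call was lost without ENU replicate 3, without saline replicate 3, with the clock covariate and with no filter on low values. Ccng1, the gene of cyclin G1 (chromosome 11, 40748552 to 40755311), had 78.4, 69.6 and 96.9 FPKM in ENU libraries, against 10.9, 12.9 and 11.9 FPKM in saline libraries. Its groups were tight and far apart (log2 2.67, SE 0.13, adjusted p = 0.000571). Plk2, a polo-like kinase gene, averaged 16.7 ± 2.78 FPKM after ENU and 3.49 ± 0.91 FPKM after saline (SD, n = 3 each; log2 1.99, SE 0.19). Sesn2, which restrains mTORC1 under stress, rose by 1.55 (SE 0.16), Psrc1, a spindle-associated gene, by 2.38 (SE 0.23), and Gtse1, a microtubule-binding p53 antagonist, by 1.74 (SE 0.18). Btg2, an antiproliferative gene that is also an immediate early gene, rose by 1.21 (SE 0.21), while its relative Btg1, chosen after its values were seen as the single decrease of the list, fell by 0.68 on the log2 scale. Of 16 kept proliferation genes, 0 rose and 1 fell, Mcm3, a subunit of the replicative helicase (log2 -0.72, SE 0.14, adjusted p = 0.0278, and 0.0508 with the replicate block).

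Among the death genes, Bax, a pore-forming protein of the mitochondrial outer membrane (chromosome 7, 45461697 to 45466898), had 120, 96.3 and 106 FPKM in ENU libraries, against 41.2, 32.2 and 40 FPKM in saline libraries. The increase was 2.85-fold in the means (log2 1.49, SE 0.13, adjusted p = 0.00226). Eda2r, a death-domain-linked receptor of the tumour necrosis factor family (chromosome X, 97333840 to 97377216), had 7.81, 4.84 and 8.68 FPKM in ENU libraries, against 0.0222, 0.141 and 0.171 FPKM in saline libraries, where it was nearly silent (log2 2.84, SE 0.20, adjusted p = 0.00121). Aen, a nuclease that promotes apoptosis, averaged 47.2 ± 7.79 FPKM after ENU and 7.70 ± 1.37 FPKM after saline (log2 2.47, SE 0.16, adjusted p = 0.00117). Siva1, a proapoptotic adaptor, rose by 1.16 (SE 0.11). Dcxr, a carbonyl reductase gene placed on this list as a p53-responsive gene, was abundant and rose to 387, 338 and 421 FPKM in ENU libraries, against 141, 137 and 142 FPKM in saline libraries (log2 1.44, SE 0.10, adjusted p = 0.00121). It lies beside Rac3, a small GTPase gene, on chromosome 11 (Dcxr at 120725399 to 120727281, Rac3 at 120721470 to 120723969). Rac3 had 16.2, 9.37 and 28.6 FPKM in ENU libraries, against 1.08, 1.48 and 1.30 FPKM in saline libraries (log2 2.93, SE 0.34, adjusted p = 0.00634).

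Among the feedback genes, Phlda3, which blocks membrane recruitment of Akt (chromosome 1, 135766119 to 135769136), had 78.7, 60.3 and 75.9 FPKM in ENU libraries, against 1.19, 1.52 and 1.42 FPKM in saline libraries. The means differed 52.1-fold (log2 4.93, SE 0.13, adjusted p = 9.23e-06). Mdm2, the ubiquitin ligase that degrades p53, had 60.6, 46.6 and 70.2 FPKM in ENU libraries, against 17.5, 16.7 and 19.6 FPKM in saline libraries (log2 1.65, SE 0.15, adjusted p = 0.00346). Its partner Mdm4 rose less, by 0.56 (SE 0.12, adjusted p = 0.0341), and passed neither with the replicate block (0.0501) nor after median-ratio rescaling (0.0651). Ddit4l, a negative regulator of mTOR, rose by 1.64 (SE 0.29, adjusted p = 0.0226).

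**Figure D2:**
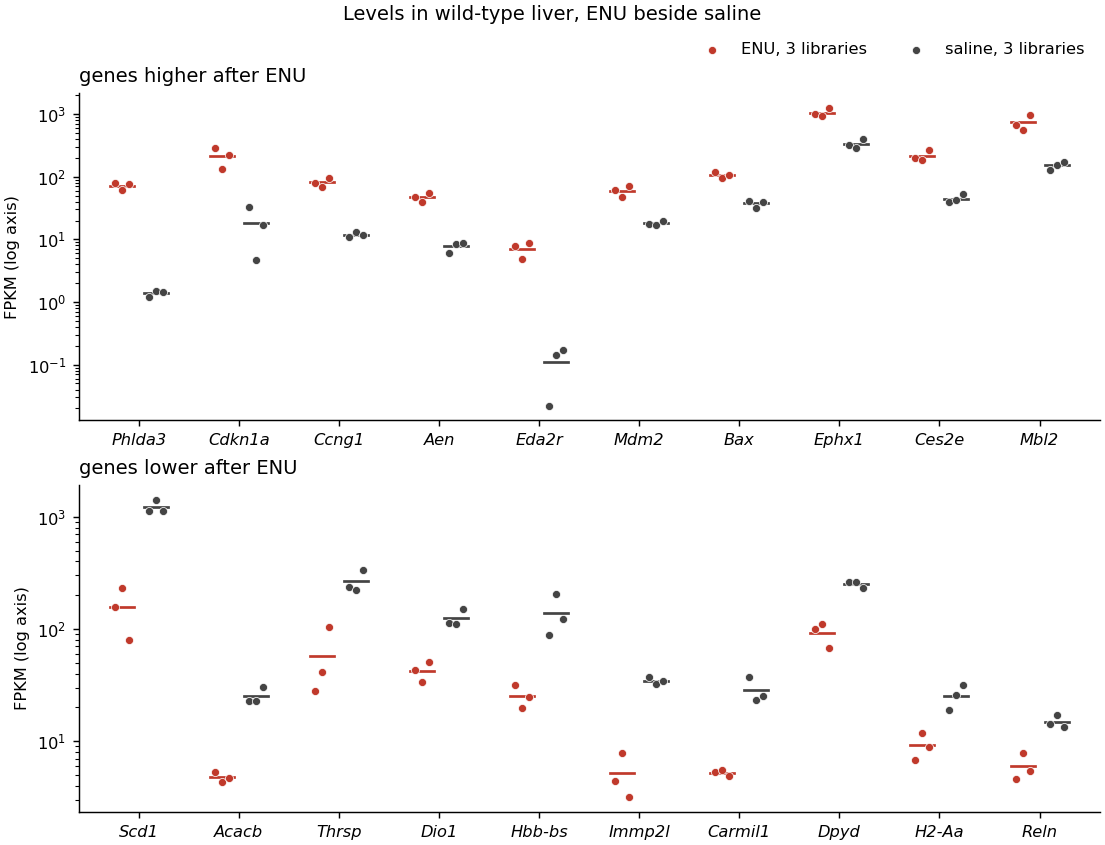
FPKM (log axis) of 10 genes that rose and 10 that fell after ENU; each point is 1 library, red for ENU and dark grey for saline, and each bar is the mean of 3. The groups do not overlap in any of the 20 genes. Eda2r (0.0222 to 0.171 FPKM) and Cdkn1a (4.70 to 32.5 FPKM) after saline, and Scd1 and Thrsp after ENU, spread more than the others.

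A few DNA repair genes rose. Mgmt, the alkyltransferase that takes alkyl groups off guanine in a single step (chromosome 7, 136894614 to 137130266), had 10.8, 9.69 and 9.79 FPKM in ENU libraries, against 5.41, 4.98 and 5.89 FPKM in saline libraries. All 3 ENU libraries lay above all 3 saline libraries, by 1.86-fold in the means (log2 0.79, SE 0.10, adjusted p = 0.00947). Of 20 genes of alkyl damage reversal and base excision repair, 3 rose and 0 fell (median 0.13). The other two were Mpg, the alkyladenine glycosylase gene (log2 0.52, SE 0.12, adjusted p = 0.0408, and 0.0706 with the replicate block), and Lig3, a ligase gene (log2 0.39, SE 0.09, adjusted p = 0.0447, and 0.0805 with the block); neither passed after median-ratio rescaling. Of 26 genes of nucleotide excision repair and translesion synthesis, 4 rose (15.4%) and 0 fell (median 0.15), with 3 higher after median-ratio rescaling. Both leading members were tied to lesion bypass. Polk, a translesion polymerase, had 7.09, 4.98 and 8.14 FPKM in ENU libraries, against 1.72, 2.03 and 2.06 FPKM in saline libraries (log2 1.38, SE 0.17, adjusted p = 0.00829). Rev1, the scaffold of translesion polymerases, had 14.7, 13.9 and 16.8 FPKM in ENU libraries, against 5.92, 6.27 and 6.29 FPKM in saline libraries (log2 1.17, SE 0.10, adjusted p = 0.00249). The excision nuclease gene Ercc5 rose by 0.75 (SE 0.12, adjusted p = 0.0193) and the helicase gene Ercc3 by 0.46 (SE 0.09, adjusted p = 0.0295, and 0.0568 with the block). Of 24 genes of mismatch repair, homologous recombination and the Fanconi pathway, 1 rose (4.2%, below the share of all kept genes) and 0 fell. After median-ratio rescaling 0 of them were higher. The gene called was Mdc1, a mediator of checkpoint signalling (log2 0.56, SE 0.13, adjusted p = 0.0447, and 0.0648 with the block). Ddias, a suppressor of apoptosis after DNA damage, reached 7.41, 3.51 and 6.76 FPKM in ENU libraries, against 0.0995, 0.208 and 0.343 FPKM in saline libraries (log2 2.46, SE 0.24).

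Several large increases lay outside the damage lists. Gria3, a glutamate receptor subunit gene that is mainly neuronal (chromosome X, 41400854 to 41678601), had 5.02, 5.05 and 7.32 FPKM in ENU libraries, against 0.0294, 0.145 and 0.146 FPKM in saline libraries (log2 2.60, SE 0.16, adjusted p = 0.00117). Atp8b5, a lipid flippase gene best known from testis, had 5.21, 3.30 and 4.79 FPKM after ENU and 0.0180, 0.157 and 0.155 FPKM after saline (log2 2.28, SE 0.17). Sulf2, a heparan sulfate endosulfatase, averaged 33.4 ± 6.72 FPKM after ENU and 7.04 ± 0.76 FPKM after saline (log2 2.08, SE 0.16). The lincRNA RP24-286J21.7 (chromosome 8, 121833247 to 121841178) had 234, 151 and 146 FPKM in ENU libraries, against 5.28, 2.87 and 1.97 FPKM in saline libraries. On the log2(FPKM + 1) scale its fold change of 5.38 (SE 0.29, adjusted p = 0.000571) was the highest of all kept genes past the threshold. 1700007K13Rik (chromosome 2, 28462001 to 28466332) had 16.6, 9.78 and 24.3 FPKM after ENU and 0.0789, 0 and 0 FPKM after saline (log2 4.04, SE 0.28). That scale shrinks the change of such low genes: by voom 1700007K13Rik was at 8.86, above the lincRNA at 5.82. 2410089E03Rik (chromosome 15, 8169106 to 8271158) had 26.1, 27.6 and 43.5 FPKM after ENU and 1.73, 1.91 and 1.81 FPKM after saline (log2 3.53, SE 0.19). All 3 were low in every saline library. Of the genes named so far, Eda2r, Psrc1, Gtse1, Ddias, Gria3, Atp8b5 and 1700007K13Rik were kept through the ENU libraries alone. By gene class, 860 of 10797 protein-coding genes rose (8.0%) and 206 fell, and 10 of 131 lincRNAs rose and 4 fell.

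Genes of detoxification were called in both directions, and most increases among the P450 genes depended on the scaling. Ephx1, a microsomal epoxide hydrolase that is a target of both p53 and NRF2, had 994, 937 and 1244.5 FPKM in ENU libraries, against 318, 290 and 401 FPKM in saline libraries (log2 1.65, SE 0.16, adjusted p = 0.00359). Ces2e, a carboxylesterase of a family with near-identical members that may share reads, had 198, 188 and 264 FPKM after ENU and 40, 41.9 and 52.5 FPKM after saline (log2 2.24, SE 0.16, adjusted p = 0.00121). Sult2a7, a sulfotransferase of another such family, rose to 30.1 ± 2.56 FPKM after ENU, against 6.40 ± 3.07 FPKM after saline (log2 2.17, SE 0.32). Of 26 NRF2 targets and glutathione genes, 5 rose and 0 fell (median 0.26); 2 of the 5 passed after median-ratio rescaling and 3 with the replicate block. The quinone reductase gene Nqo1 was at 0.75 (SE 0.15, adjusted p = 0.0299, and 0.0515 with the block). Of 30 cytochrome P450 genes of families 1 to 3, 5 rose and 4 fell; after median-ratio rescaling 1 was higher and 4 were lower. Cyp2c29, an abundant member, fell to 341, 240 and 393 FPKM in ENU libraries, against 913, 839 and 712 FPKM in saline libraries (log2 -1.36, SE 0.19, adjusted p = 0.0125), and Cyp2a22 rose by 1.23 (SE 0.18). Aldh2, a mitochondrial aldehyde dehydrogenase, had the largest increase in FPKM of any gene called, with 2686.7, 2684.4 and 2923.1 FPKM after ENU and 1864.4, 1775.2 and 1873.1 FPKM after saline (log2 0.59, SE 0.11, adjusted p = 0.0238, and 0.0597 after median-ratio rescaling).

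Genes of fatty acid synthesis fell. Of 22 kept genes of fatty acid synthesis and SREBP1c targets, 0 rose and 6 fell, with a median log2 fold change of -0.56; 7 fell after median-ratio rescaling and 10 with the replicate block. Scd1, the stearoyl-CoA desaturase that makes monounsaturated fatty acids (chromosome 19, 44394451 to 44407709), had 156, 234 and 79.6 FPKM in ENU libraries, against 1128.3, 1422 and 1136 FPKM in saline libraries. The ratio of means was 0.127 (log2 -3.09, SE 0.35, adjusted p = 0.00603). Acacb, the mitochondrial acetyl-CoA carboxylase whose product blocks carnitine palmitoyltransferase (chromosome 5, 114146535 to 114250761), had 5.37, 4.29 and 4.66 FPKM in ENU libraries, against 22.7, 22.7 and 30.5 FPKM in saline libraries (log2 -2.18, SE 0.14, adjusted p = 0.00117). Thrsp, a lipogenic gene induced by thyroid hormone and carbohydrate, had 27.8, 41.2 and 104 FPKM after ENU and 238, 224 and 334 FPKM after saline (log2 -2.38, SE 0.43, adjusted p = 0.0243). Fads2, a desaturase of polyunsaturated fatty acids, fell by 0.57 on the log2 scale (SE 0.08), and Gpam, the first acyltransferase of triglyceride synthesis, fell by 0.55 (SE 0.12). Dio1, the deiodinase that is itself a thyroid hormone target, fell to 43.2, 33.5 and 50.4 FPKM in ENU libraries, against 114, 110 and 152 FPKM in saline libraries (log2 -1.54, SE 0.18, adjusted p = 0.00635).

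Genes of fatty acid oxidation rose modestly and in number. Of 41 kept PPARalpha targets and oxidation genes, 16 rose and 0 fell, 36 estimates were above 0, and the median was 0.48. The increases numbered 6 after median-ratio rescaling and 11 with the replicate block. Ppara, the fatty acid-sensing receptor that drives the pathway, had 80.9, 107 and 105 FPKM in ENU libraries, against 58.0, 47.3 and 41.1 FPKM in saline libraries (log2 0.99, SE 0.16, adjusted p = 0.0176). Cpt2, the inner carnitine palmitoyltransferase, had 173, 194 and 175 FPKM after ENU and 123, 118 and 125 FPKM after saline (log2 0.56, SE 0.08, adjusted p = 0.0135). Slc22a5, the carnitine importer, rose by 0.68 (SE 0.10), and Hadha and Hadhb, the subunits of the trifunctional protein, which neighbour each other on chromosome 5, rose by 0.51 (SE 0.08) and 0.54 (SE 0.10). Esrra, a nuclear receptor of mitochondrial genes, rose by 1.08 (SE 0.10, adjusted p = 0.00346). The median of the list was 0.36 after median-ratio rescaling.

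Sterol, bile acid and endocrine genes showed smaller groups of changes. Of 25 cholesterol genes 0 rose and 3 fell: Insig1, which retains SREBP in the endoplasmic reticulum (167, 198 and 155 FPKM after ENU and 355, 393 and 451 FPKM after saline; log2 -1.20, SE 0.13, adjusted p = 0.00491), the desaturase gene Sc5d (126 ± 13.1 FPKM after ENU and 256 ± 61.4 FPKM after saline) and the kinase gene Pmvk (log2 -0.78, SE 0.17, adjusted p = 0.0353, and 0.0622 with the block). The transporters of the bile canaliculus went opposite ways. Abcb11, the bile salt export pump, averaged 106 ± 20.2 FPKM after ENU and 205 ± 30.7 FPKM after saline (log2 -0.96, SE 0.16, adjusted p = 0.0211). Abcb4, the phospholipid floppase, averaged 135 ± 8.79 FPKM after ENU and 80.0 ± 12.4 FPKM after saline (log2 0.76, SE 0.12, adjusted p = 0.0196). Igfbp1, an insulin-repressed binding protein, had 68.3, 21.3 and 47.4 FPKM after ENU and 492, 109 and 286 FPKM after saline (log2 -2.57, SE 0.59, adjusted p = 0.0407); it passed in 6 of 17 alternatives. Ghr, the growth hormone receptor, was tight within groups, with 228, 246 and 226 FPKM after ENU and 325, 327 and 331 FPKM after saline (log2 -0.49, SE 0.08, adjusted p = 0.0184). Glul, the glutamine synthetase of pericentral hepatocytes, fell to 644, 641 and 539 FPKM in ENU libraries, against 1110.2, 1059.7 and 1146.4 FPKM in saline libraries (log2 -0.87, SE 0.11, adjusted p = 0.00829).

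Secreted liver proteins were mostly not called. Of 27 acute phase genes, 0 rose and 0 fell by limma (1 higher and 4 lower at an unadjusted p under 0.05, and 0 by voom), and 5 fell with the replicate block. Hp, the haptoglobin gene, ranged from 6937.6 to 15003.6 FPKM in ENU libraries and from 5474.6 to 14244.9 FPKM in saline libraries, an overlap of nearly the whole range. Of 40 complement and coagulation genes 7 rose and 1 fell, against 3 and 1 after median-ratio rescaling and 4 and 2 with the replicate block. Mbl2, the mannose-binding lectin, had 667, 565 and 974 FPKM in ENU libraries, against 128, 156 and 172 FPKM in saline libraries (log2 2.24, SE 0.21, adjusted p = 0.00346). Masp2, the protease that binds it in the lectin pathway, had 237, 234 and 283 FPKM after ENU and 128, 114 and 125 FPKM after saline (log2 1.03, SE 0.10, adjusted p = 0.00395). Of 26 hepatocyte transcription factor genes, 6 rose and 0 fell, among them the xenobiotic receptor gene Nr1i3 (log2 0.87, SE 0.17, adjusted p = 0.027).

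All 19 heat shock chaperone genes had estimates above 0 (median 0.51, and 0.39 after median-ratio rescaling), and 4 rose. Hspa1b, an inducible chaperone nearly identical to its neighbour Hspa1a, had 22.3, 29.6 and 66.4 FPKM in ENU libraries, against 8.12, 7.27 and 4.58 FPKM in saline libraries (log2 2.28, SE 0.38, adjusted p = 0.0201). Hsph1, a nucleotide exchange factor of these chaperones, was at 1.17 (SE 0.26, adjusted p = 0.0383). Hspa8 and Bag3 passed without the replicate block but not with it (0.054 and 0.058). The list also had 4 increases with the block, with other members in place of Hspa8 and Bag3. After median-ratio rescaling only Hspa1b of the 4 called without the block passed. Of 25 endoplasmic reticulum and integrated stress genes 1 rose, Sesn2.

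**Figure D3:**
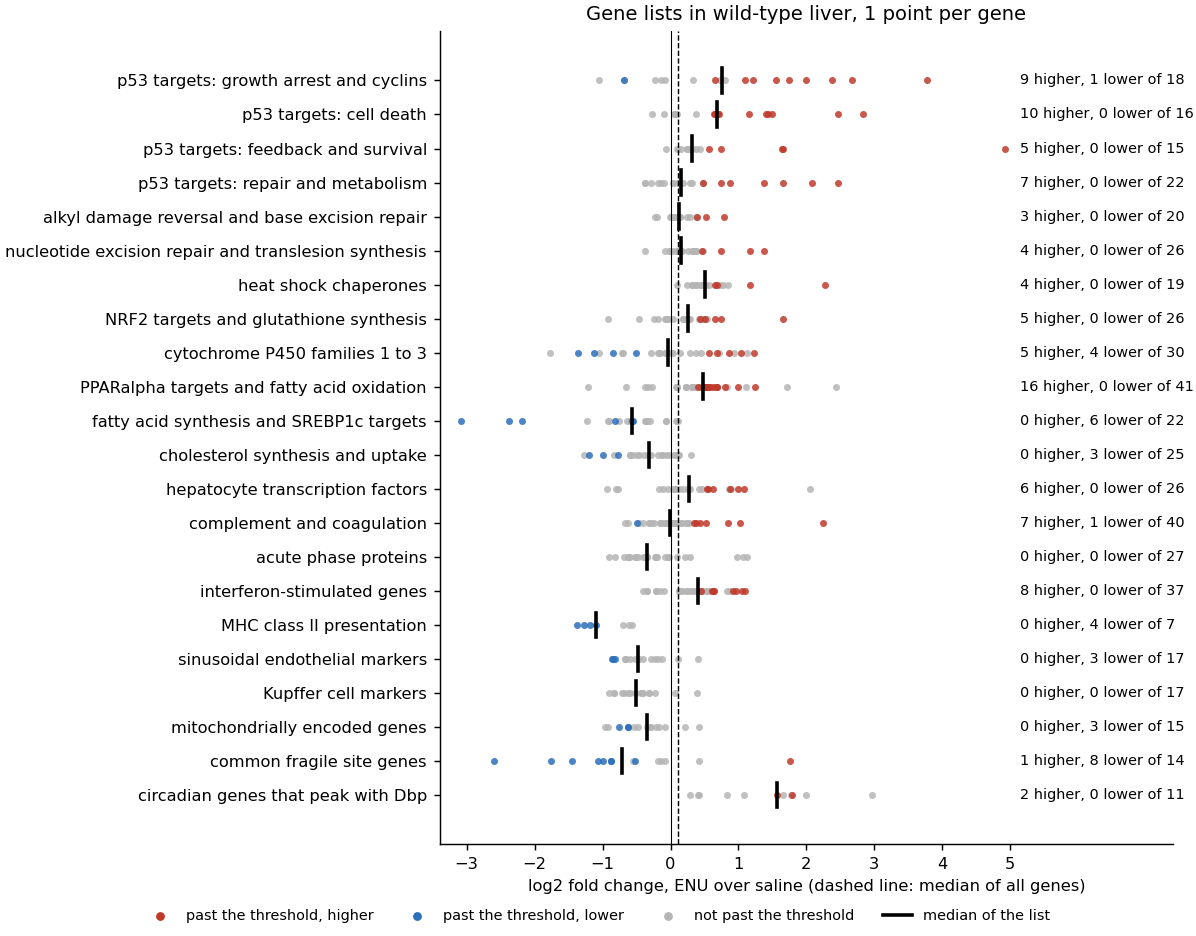
Log2 fold change (ENU over saline, x axis) of the genes of 22 lists; each point is 1 gene, red or blue where it passed the threshold, and the black bar is the median of the list. The p53 lists hold the points farthest to the right, and the fatty acid synthesis, MHC class II and fragile site lists have medians of -0.56, -1.10 and -0.71, left of the median of all genes at 0.11 (dashed).

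Immune genes split by class. Of 37 interferon-stimulated genes, 8 rose and 0 fell (median 0.40), with 3 increases after median-ratio rescaling and 4 with the replicate block. Xaf1, an interferon-induced proapoptotic gene, had 7.92, 8.02 and 5.89 FPKM in ENU libraries, against 3.14, 2.86 and 2.52 FPKM in saline libraries (log2 1.10, SE 0.14, adjusted p = 0.00947). Irf9, the DNA-binding subunit of the interferon complex, rose by 0.62 (SE 0.09, adjusted p = 0.0135) and Ifih1, a sensor of double-stranded RNA, by 0.64 (SE 0.10, adjusted p = 0.0149). Zbp1, a sensor of left-handed nucleic acids, was at 1.05 (SE 0.23, adjusted p = 0.0371, and 0.0538 with the block). Of 22 genes of retroelement silencing and restriction, 0 were called by limma (3 higher and 1 lower at an unadjusted p under 0.05, and 0 by voom); the corepressor Trim28 was at 0.24 (SE 0.11) and the methyltransferase Ehmt2 at 0.29 (SE 0.10). Among 22 MHC class I presentation genes 4 rose (2 after median-ratio rescaling and 3 with the block), led by the peptide transporter Tap1, a p53 target, with 24.0, 29.2 and 24.7 FPKM after ENU and 12.8, 13 and 15.4 FPKM after saline (log2 0.87, SE 0.11, adjusted p = 0.0101).

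MHC class II genes, which present antigen on macrophages, dendritic cells and B cells, all had estimates below 0. Of 7 kept, 4 fell: H2-Aa (9.19 ± 2.47 FPKM after ENU and 25.4 ± 6.19 FPKM after saline; log2 -1.37, SE 0.22, adjusted p = 0.0189), H2-Eb1 (-1.27, SE 0.25), H2-Ab1 (-1.18, SE 0.25) and the invariant chain Cd74 (-1.10, SE 0.23). Markers of other non-parenchymal cells had medians below 0 as well, but so did hepatocyte markers (median -0.26, with 0 higher and 1 lower of 19). The stellate cell (-0.19) and cholangiocyte (-0.23) medians were no lower than that of hepatocyte markers. In whole liver, fewer cells of a type and less RNA per cell cannot be told apart. The 17 Kupffer cell markers summed to 656, 581 and 261 FPKM in ENU libraries, against 678, 848 and 502 FPKM in saline libraries, with a median of -0.51 and 0 calls by limma (2 lower at an unadjusted p under 0.05, 0 by voom, and 3 lower with the replicate block). Of 17 sinusoidal endothelial markers 3 fell and 0 rose (median -0.48; 5 lower after median-ratio rescaling and 7 with the block), led by the scavenger receptor Stab2, with 3.62, 4.56 and 3.57 FPKM after ENU and 8.25, 8.27 and 7.11 FPKM after saline (log2 -0.86, SE 0.12, adjusted p = 0.0129). The 3 of 13 listed B cell markers that were kept summed to 32.9, 14.4 and 3.40 FPKM in ENU libraries and 73.2, 49.7 and 11.9 FPKM in saline libraries; Ighm, the heavy chain of IgM, did not pass (adjusted p = 0.104, and 0.00468 with the block). The neutrophil calprotectin genes S100a8 (adjusted p = 0.129, and 0.0353 with the block) and S100a9 (0.181, and 0.0419 with the block) also passed with the block alone. The 19 hepatocyte markers summed to 58537.1, 64257.3 and 76617.8 FPKM in ENU libraries and 74264.2, 81354.2 and 93895.2 FPKM in saline libraries. The part that cell composition had in the MHC class II decrease was not tested.

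Globin transcripts fell. Hba-a1 had 9.59, 8.49 and 4.10 FPKM in ENU libraries, against 41.5, 96.4 and 54.0 FPKM in saline libraries (log2 -2.93, SE 0.36, adjusted p = 0.00829). Hbb-bs had 31.5, 19.6 and 24.9 FPKM after ENU and 89.3, 204 and 123 FPKM after saline (log2 -2.35, SE 0.30, adjusted p = 0.0093), and Hbb-bt followed (log2 -2.36, SE 0.39). These genes have near-identical copies whose reads may be shared. The remaining globin gene, Hba-a2, did not pass (log2 -1.53, SE 0.52, adjusted p = 0.101, and 0.0436 with the replicate block). The 4 kept erythroid markers that are not globin genes had estimates above 0: Car2, a carbonic anhydrase gene, rose by 0.88 (SE 0.16), Klf1, the erythroid transcription factor, by 0.65 (SE 0.13, adjusted p = 0.0299, and 0.0592 with the block), and Alas2, a haem synthesis gene chosen after its values were seen, by 0.36 (0.0705 with the block), while Car1 did not pass (log2 0.48, adjusted p = 0.0951). After median-ratio rescaling 1 of the 3 increases passed. The 8 kept erythroid markers summed to 162, 154 and 148 FPKM in ENU libraries and 223, 422 and 285 FPKM in saline libraries, and their part in the globin decrease was not tested.

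A few mitochondrially encoded genes fell, and nuclear genes of respiration were called at about the background share. Of 15 mitochondrially encoded genes 0 rose and 3 fell (median -0.34). The cytochrome b gene mt-Cytb had 3558.4, 3783.1 and 3440.5 FPKM in ENU libraries, against 5450.8, 7004.2 and 5944.3 FPKM in saline libraries (log2 -0.76, SE 0.14, adjusted p = 0.0261). The complex I genes mt-Nd4 and mt-Nd6 fell by 0.62 (SE 0.12) and 0.63 (SE 0.12) on the log2 scale. Of 59 nuclear genes of the respiratory complexes 5 rose (8.5%, against 7.75% of all kept genes) and 0 fell, with the median of all genes (0.11), led by the complex I gene Ndufb6, with 117, 123 and 144 FPKM after ENU and 72.6, 68.7 and 70.1 FPKM after saline (log2 0.85, SE 0.10, adjusted p = 0.00603). After median-ratio rescaling 1 nuclear gene was higher and 2 were lower, while the mitochondrial decreases mt-Cytb, mt-Nd4 and mt-Nd6 all passed (adjusted p = 0.0245, 0.0249 and 0.0249). After quantile normalization mt-Cytb and mt-Nd4 did not pass. In the order given, the 3 genes passed in 8, 8 and 9 of 17 alternatives. Of 75 ribosomal protein genes 6 rose (8.0%, close to the 7.75% of all kept genes) and 0 fell. Only 1 was higher after rescaling and 1 with the replicate block, and the list's median after rescaling was 0.03. Histone genes had 3 increases among 15, with H2afj at 78.4, 80.1 and 85.8 FPKM after ENU and 34.6, 37.9 and 39.9 FPKM after saline (log2 1.10, SE 0.09, adjusted p = 0.00148).

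Decreases were concentrated among the longest genes. By the distance from first to last base in the deposited table, 179 kept genes exceeded 300 kb, and of these 48 fell (26.82%) and 3 rose (1.68%). Among shorter genes the share that fell was 1.84% under 10 kb (3634 genes), 1.26% from 10 to 30 kb (3808 genes), 1.07% from 30 to 100 kb (3262 genes) and 2.20% from 100 to 300 kb (1091 genes). The median log2 fold change was 0.11, 0.12, 0.11 and 0.02 in those bins, shortest first, and -0.26 above 300 kb, where it stayed between -0.29 and -0.23 with any library left out and was -0.36 after median-ratio rescaling. All 48 decreases also passed after that rescaling, and 34 passed with the replicate block. Of the 179, 142 had estimates below 0 (79.3%). The filter on low values took part: 16 of the long genes were kept through the 3 saline libraries alone and could only differ one way, and 11 of these fell. Among the other 163, 37 fell (22.7%) and the median was -0.21. The decline was present in each ENU library. The median of the long genes minus the median of all others, each set against the saline mean, was -0.35, -0.37 and -0.52 in ENU replicates 1 to 3, against 0.07, -0.00 and -0.08 in the saline replicates. Over all genes the rank correlation of fold change with locus length was -0.073 and with the length of the mature transcript 0.054 (Spearman, across 11974 genes, which are not independent replicates).

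**Figure D4:**
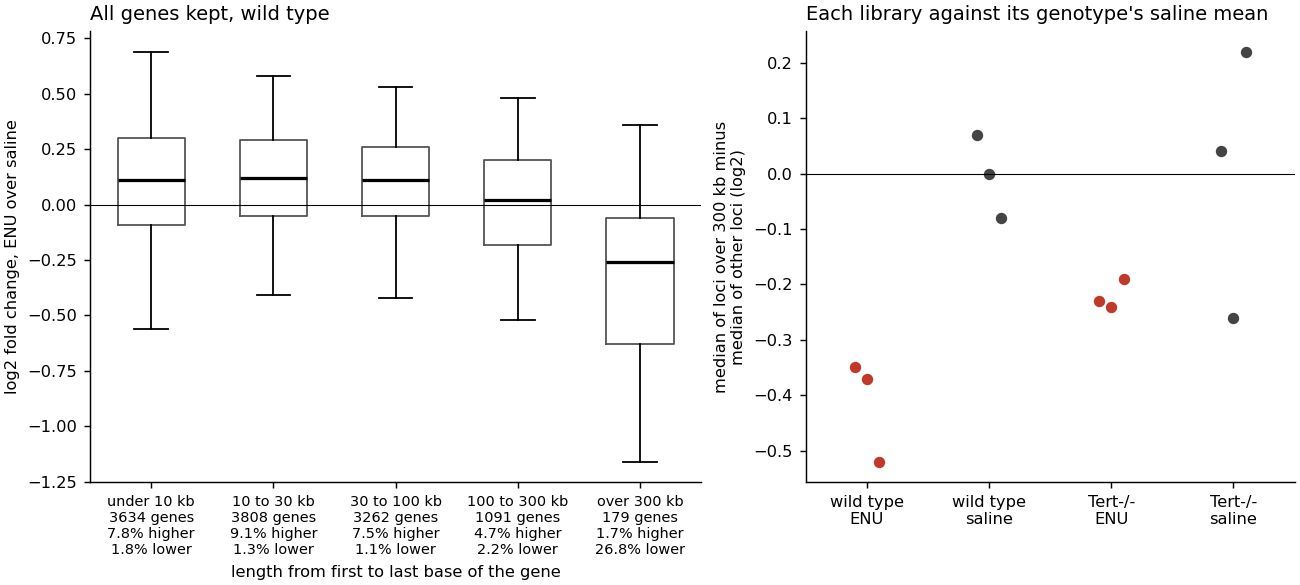
Left, log2 fold change (ENU over saline) by the genomic length of the gene; boxes span the quartiles, bars within them are medians and whiskers reach the percentiles 5 and 95. Right, for each library, the median of loci over 300 kb minus the median of other loci, each against the saline mean of its own genotype; the wild-type ENU libraries lie at -0.35, -0.37 and -0.52, below all wild-type saline libraries.

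Genes of common fragile sites, long genes whose loci break under replication stress, were among them: of 14 kept, 8 fell and 1 rose (median -0.71). Immp2l, which encodes a peptidase of the inner mitochondrial membrane (chromosome 12, 41024090 to 41955588), had 4.43, 7.93 and 3.18 FPKM in ENU libraries, against 37.0, 32.4 and 34.4 FPKM in saline libraries (log2 -2.60, SE 0.25, adjusted p = 0.00359). Fhit (chromosome 14, 9550092 to 11162035), a tumour suppressor gene, had 0.196, 0.144 and 0.0674 FPKM after ENU and 4.36, 2.93 and 1.72 FPKM after saline (log2 -1.76, SE 0.24). Dpyd, which starts pyrimidine breakdown (chromosome 3, 118562129 to 119432924), had 101, 110 and 67.3 FPKM after ENU and 261, 262 and 230 FPKM after saline (log2 -1.45, SE 0.18, adjusted p = 0.00829). Park2 (chromosome 17, 10840384 to 12063361), a mitophagy ubiquitin ligase, had 0.110, 0.108 and 0.164 FPKM after ENU and 1.36, 1.51 and 1.23 FPKM after saline; it and Fhit were kept through the saline libraries alone. Reln, a stellate cell marker spanning chromosome 5, 21884454 to 22344702, fell by 1.21 on the log2 scale (SE 0.18), and its decrease therefore stands both with the long genes and with the non-parenchymal markers. Others, chosen after their values were seen, were Slc39a11, a zinc transporter gene (13.5, 12.5 and 9.85 FPKM after ENU and 33.1, 27.9 and 25.6 FPKM after saline), and Cpq, a plasma carboxypeptidase gene (11.7, 14.7 and 11.2 FPKM after ENU and 25.8, 26.0 and 25.6 FPKM after saline). Among the 3 long genes that rose was Exoc4, an exocyst subunit gene spanning chromosome 6, 33249085 to 33973979. It was also the 1 fragile site gene that rose. Exoc4 had 29.4, 23.5 and 27.0 FPKM in ENU libraries, against 6.60, 6.58 and 8.22 FPKM in saline libraries (log2 1.76, SE 0.12, adjusted p = 0.00121). Other large decreases were in genes under 300 kb: Chrna4, a nicotinic receptor subunit (0.243, 0.0297 and 0.417 FPKM after ENU and 4.48, 8.36 and 13.6 FPKM after saline), Carmil1, a regulator of actin capping (5.31, 5.49 and 4.95 FPKM after ENU and 37.0, 23.5 and 25.1 FPKM after saline), and Efna3, an ephrin ligand (log2 -1.70, SE 0.16), whose reads cannot be told apart from those of the overlapping transcript Gm15998 (log2 -2.10, SE 0.32) because the strand setting is not given. Chrna4 and Efna3 were kept through the saline libraries alone.

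Tert, the gene of the telomerase catalytic subunit (chromosome 13, 73627001 to 73649041), had 6.23, 5.69 and 4.70 FPKM in ENU libraries, against 3.18, 3.22 and 1.61 FPKM in saline libraries. In Tert-/- libraries it had 1.62, 1.23 and 1.11 FPKM after ENU and 0.443, 0.304 and 0.734 FPKM after saline, and only the ENU libraries reached 1 FPKM. The wild-type groups did not overlap (log2 0.86, SE 0.21, adjusted p = 0.0457), but the call was close to the threshold and was lost after median-ratio rescaling (0.0801); it passed in 4 of 17 alternatives. Of 16 telomerase and shelterin genes 2 rose (12.5%, against 7.75% of all kept genes) and 0 fell, and 0 were higher after median-ratio rescaling. Besides Tert, the gene called was Rtel1, a helicase that unwinds telomeric loops (log2 0.51, SE 0.11, adjusted p = 0.0384, and 0.055 with the replicate block). Rtel1 passed in 5 of 17 alternatives.

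The genes called in wild type mostly moved the same way in the Tert-/- libraries, which share no library with this comparison. Of the 928 that rose, 877 had Tert-/- estimates above 0 (94.5%, against 71.1% of all kept genes), and in 598 the 3 ENU and 3 saline Tert-/- libraries did not overlap, in the same direction (64.4%, against 25% of all kept genes). Of the 222 that fell, 193 had estimates below 0 (86.9%, against 28.9%) and 97 were without overlap in that direction (43.7%, against 6.36%). Without Tert-/- saline replicate 2, which had reads in fewer genes than any other library (17486) and 29.53% of its reads in 20 genes, these shares were 73.4% (against 30.2% of all kept genes) and 70.3% (against 16.7%). At 1 or more on the log2 scale, 92 of 113 increases (81.4%) and 35 of 55 decreases (63.6%) were without overlap the same way. Of the 48 long genes that fell, 40 had Tert-/- estimates below 0 and 23 were without overlap. The whole set of long genes also lay below the others in Tert-/-: its median was 0.03, where the medians of the shorter bins were 0.10, 0.25, 0.35 and 0.34. The difference from other genes was -0.23, -0.24 and -0.19 in Tert-/- ENU libraries, smaller than in wild type (-0.35, -0.37 and -0.52). In Tert-/- saline replicates 1 to 3 it was 0.04, -0.26 and 0.22. The groups overlap through saline replicate 2 alone, which also enters the saline mean used here. Some wild-type changes were small in Tert-/-: Btg2 was at -0.04, Siva1 at 0.11 and Mgmt at 0.18. The test of the difference between the genotypes (interaction term of a 12-library limma fit) called 0 genes, with 825 at an unadjusted p under 0.05; without Tert-/- saline replicate 2 it called 0, with 1629, so none was shown to respond differently at that threshold.

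**Figure D5:**
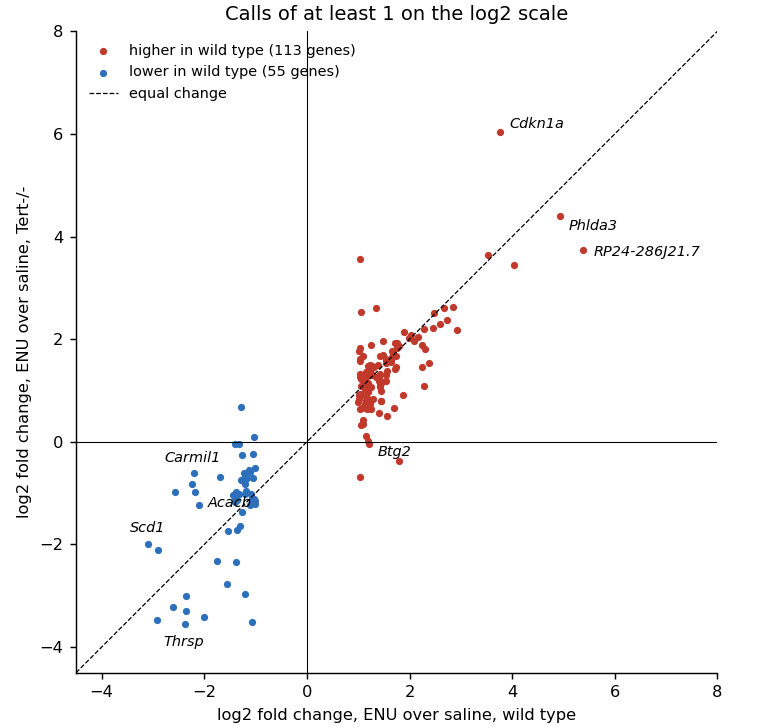
Log2 fold change (ENU over saline) in wild type (x axis) and in Tert-/- (y axis) of the 113 genes called higher (red) and the 55 called lower (blue) at 1 or more on the log2 scale in wild type; the dashed line marks equal change. The p53 targets Phlda3 (4.93 in wild type and 4.40 in Tert-/-) and Cdkn1a (3.77 and 6.04) lie far up in both, and 110 of the 113 increases and 53 of the 55 decreases have the same sign.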

How the data were processed

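RNA-seq of whole liver was analysed from the deposited table of FPKM values per gene and library. Per the submitters' processing notes, HISAT2, HTSeq and the mm10 build were used; the sources used here give no version, strand setting or annotation release. Per library, 30053822 to 43680374 reads were recovered from the FPKM steps in wild type (26523 of 26524 genes whole within 0.01 reads).

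Genes with at least 1 FPKM in 3 of the 6 wild-type libraries were kept, and log2(FPKM + 1) was tested with limma 3.58.1 (R 4.3.3) with a mean-variance trend. P-values were two-sided, adjusted by Benjamini and Hochberg over 11974 genes and called under 0.05. Fold changes on this scale understate the change of low genes. Both groups share replicate numbers in the labels. Deviations from the group means correlated weakly between same-numbered libraries (r = 0.127, 0.101 and 0.166). Between libraries of different number r was -0.131 to 0.013. Deviations within a group balance out, so positive values for same numbers force lower values for different numbers. These values therefore do not settle whether the numbers pair the libraries. The main fit has no block, and the fit with a replicate block is given beside many of the calls that it changed. Alternatives were pseudocount 0.1, other filters, median-ratio and quantile scaling, a spread shared over 12 or 11 libraries, no trend, voom on recovered reads, the replicate block, the log2 ratio of Dbp to Arntl as a covariate, and each library left out.

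Named genes were the 15 largest increases and 15 largest decreases with a curated symbol and no overlap, 3 each way without one or noncoding, up to 5 called members of each of 58 gene lists (or the 2 most abundant), Tert, Trp53, the 10 most abundant genes and the 5 largest FPKM differences each way. Not every gene this rule picks is described in the text. The gene rule, lists and tests were chosen with earlier results of these data known.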

Additional observations from a re-analysis of the deposited data

Results flagged for a closer look

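Among the genes called in wild type, 4 were without overlap in the opposite direction in Tert-/- libraries. Gm24927 had a log2 fold change of -0.67 in wild type and 0.66 in Tert-/- (interaction adjusted p = 0.623 by limma over 12 libraries). Lmo4, a LIM-only transcription cofactor gene, was at -0.37 in wild type and 0.61 in Tert-/- (0.663). Rpl9-ps6, a processed pseudogene whose reads may be shared with Rpl9, was at 0.43 in wild type and -0.56 in Tert-/- (0.663). Shank2, a synaptic scaffold gene over 300 kb, had 4.80, 3.19 and 2.80 FPKM in wild-type ENU libraries and 8.34, 5.96 and 6.62 FPKM in wild-type saline libraries, against 3.58, 4.69 and 3.07 FPKM in Tert-/- ENU libraries and 1.19, 1.13 and 2.17 FPKM in Tert-/- saline libraries, a log2 fold change of -0.81 in wild type and 0.95 in Tert-/- (0.615). The difference between genotypes did not pass in any of the 4.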

How the results depend on the processing

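The calls numbered 1150 (928 higher and 222 lower), against 316 (249 and 67) with no filter on low values, 582 (295 higher) after median-ratio rescaling, 574 (303 higher) after quantile normalization, 125 (93 and 32) with the spread shared over 12 libraries, 720 (500 higher) with the replicate block and 20 (19 and 1) with the clock covariate. Leaving out 1 library gave 158 to 919 calls, 122 to 720 higher and 36 to 199 lower: 218 without saline replicate 1, 158 without saline replicate 2, 281 without saline replicate 3, 919 without ENU replicate 1, 278 without ENU replicate 2 and 373 without ENU replicate 3; these fits have fewer samples. The count was 1109 with pseudocount 0.1, 1140 with 1 FPKM in all 6 libraries, 1362 with 11 libraries, 851 with no trend and 1264 by voom. The replicate block ended the call of 35 of 160 named genes and median-ratio rescaling that of 49. Direction changed in genes that were not called. After median-ratio rescaling and quantile normalization, the estimates were -0.09 and -0.03 for Psmb4, -0.01 and -0.00 for Psmb6, and -0.03 and -0.03 for Trp53. Hp was at 0.36 after quantile normalization, 0.68 with the clock covariate and -0.40 to 0.29 with a library left out (0.29 without saline replicate 1, 0.06 without saline replicate 2, 0.13 without ENU replicate 2 and 0.19 without ENU replicate 3). C3 was at 0.25 after quantile normalization, 0.30 with the clock covariate, 0.16 without saline replicate 1 and 0.05 without ENU replicate 3 (-0.29 to 0.16 over the libraries left out). With the clock covariate Hpx was at 0.41, C1qa at 0.05 (-0.55 to 0.07 over the libraries left out, 0.07 without ENU replicate 3), Cd4 at 0.02 (-0.30 to 0.00, 0.00 without saline replicate 3) and Igkc at 0.04. Apoe and Apoa2 were at 0.00 after quantile normalization. The cause was not tested. Depth was similar between groups, and with 3 libraries each the spread between libraries sets the precision.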
